A study of Sus scrofa domesticus with 11 samples.

Results

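Lipid droplets are the stores in which a hepatocyte keeps triacylglycerol, and the genes described here encode the proteins that coat those stores, enlarge them or control how fast they are broken down. The 10 genes were taken by symbol from the deposited table of 22029 genes: the perilipins PLIN2, PLIN3, PLIN4 and PLIN5, the CIDE proteins CIDEB and CIDEC, the lipase PNPLA2, its coactivator ABHD5, and its inhibitors G0S2 and HILPDA. Each symbol matched 1 gene row, all 10 are annotated as protein-coding, and all 10 passed the filter on low counts that left 13671 genes to test. The libraries are liver RNA of preterm Yorkshire piglets that received parenteral nutrition, which is feeding by vein, collected on day of life 15. The 5 SEFA-6179 libraries come from animals given that compound, known here by its code name, at 48 mg/kg, and the 6 MCT libraries from animals given the isovolumetric vehicle at 3 ml/kg. The vehicle, MCT, is known from the study to be medium-chain triglyceride oil. Each library was taken as 1 animal. The sources used here do not give sex, litter or batch, and if libraries were not separate animals the p-values measure only the spread between samples.

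As background, perilipins bind the surface of a droplet and limit the access of lipases. PLIN2 is the perilipin most tied to fat storage in hepatocytes, and its protein is degraded when it is not bound to a droplet. PNPLA2, also called adipose triglyceride lipase, removes the first fatty acid from triacylglycerol. ABHD5 activates this lipase, while G0S2 and HILPDA bind and inhibit it. CIDEC promotes the fusion and growth of droplets, and CIDEB acts in hepatocytes on droplet size and on the loading of very low density lipoprotein.

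Total counts ran from 15974977 to 23416071 per library. All 13 hepatocyte markers found in the table were detected in all 11 libraries, and their summed level was 135331 to 229091 CPM with SEFA-6179 and 95295 to 205516 CPM with MCT. CPM are counts scaled to the library total after adjustment by the trimmed mean of M values. The summed level of 7 adipocyte markers was 109 to 603 CPM with SEFA-6179 and 187 to 519 CPM with MCT, most of it from ADIPOR2 (94.6 to 454 CPM) and THRSP (2.42 to 249 CPM), which liver also expresses. PLIN1 was at 1.76 to 5.90 CPM, LIPE at 1.74 to 10.2 CPM and FABP4 at 0.17 to 6.85 CPM, and the defining marker ADIPOQ, which encodes adiponectin, was at 0 in 8 of 11 libraries and at most 0.25 CPM. All 5 skeletal muscle markers in the table had a mean under 1 CPM. In bulk tissue, fewer cells of a type and less RNA per cell cannot be told apart.

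PLIN2 had the largest difference of the 10 genes, with a mean 2.42-fold lower in SEFA-6179 livers, and its edgeR adjusted p missed the threshold of 0.05. The 5 SEFA-6179 libraries, replicates 1 to 5, were at 91.1, 64.9, 60.8, 37.6 and 60.2 CPM. The 6 MCT libraries ran from 86.1 CPM in replicate 6 through a median of 152 CPM to 212 CPM in replicate 4. The groups overlapped at 1 point: SEFA-6179 replicate 1 lay above MCT replicate 6 and below the other 5 MCT libraries. As many as 4 SEFA-6179 libraries under the whole MCT range, or all 5, were seen in 3.24% of all tested genes. The log2 fold change of PLIN2 was -1.28 ± 0.26 (SE), with a 95% interval from -1.84 to -0.71, and its edgeR adjusted p was 0.0692. By unadjusted p it ranked 48 of 13671 genes.

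The call on PLIN2 turned on the test, and by edgeR also on the low-count filter and on 1 control library. With no low-count filter its edgeR adjusted p was 0.0430. Its adjusted p was 0.000744 by DESeq2, 0.0387 by limma with library quality weights and 0.000676 in the authors' deposited table. Without MCT replicate 6, the control with the lowest PLIN2, the edgeR adjusted p was 0.0329. That was the only call among the 11 fits that left out 1 library (edgeR adjusted p from 0.0329 to 0.185). Over all 20 alternatives to the main fit PLIN2 was called in 4, and those that left out libraries were counted by edgeR alone. In the background, edgeR called 0.219% of tested genes, DESeq2 2.06% and limma 0.454%, and the authors' deposited table called 1.16%.

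Markers of other liver cells also differed between the libraries, and their part in the PLIN2 values was not tested. The summed level of 12 macrophage markers ran from 862 to 3637 CPM with SEFA-6179 and from 1528 to 3095 CPM with MCT. CD14 had the highest mean of these markers and ran from 726 to 1488 CPM over all libraries. C1QA ran from 15.1 to 565 CPM and CD163 from 8.04 to 429 CPM, so the sum understates how far such markers ranged. The macrophage sum was lowest in SEFA-6179 replicate 4, which also had the lowest PLIN2. Among controls, MCT replicate 6 was lowest and MCT replicate 4 highest in both. SEFA-6179 replicate 3 had the highest macrophage sum of all libraries, with PLIN2 at 60.8 CPM, below every control. The sum of 12 stellate cell markers was 585 to 932 CPM with SEFA-6179 and 765 to 1137 CPM with MCT. Of the 11 stellate cell markers tested, 2 had a log2 fold change above 0 (median -0.14). The sum of 9 bile duct cell markers was 52.2 to 100 CPM against 70.8 to 174 CPM, and 0 of the 8 tested lay above 0 (median -0.91). The sum of 10 endothelial markers was 478 to 940 CPM against 420 to 836 CPM, and 9 of the 10 lay above 0 (median 0.37). Of the macrophage markers 6 of 11 lay above 0 (median 0.11), and edgeR called no marker of these 4 cell types. Hepatocyte markers also leaned higher with SEFA-6179: 10 of 13 lay above 0 (median 0.28), and edgeR called none. KRT19, a defining bile duct marker, was not matched to a row of the table. Without MCT replicate 5 and SEFA-6179 replicate 4, of which the first stood apart in PLIN4 and CIDEC and the second in macrophage markers, the PLIN2 log2 fold change was -1.15 (edgeR adjusted p = 0.178). With both left out, edgeR called 1 gene of all tested and DESeq2 226, of which 1 was among the 10 described here.

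**Figure D1:**
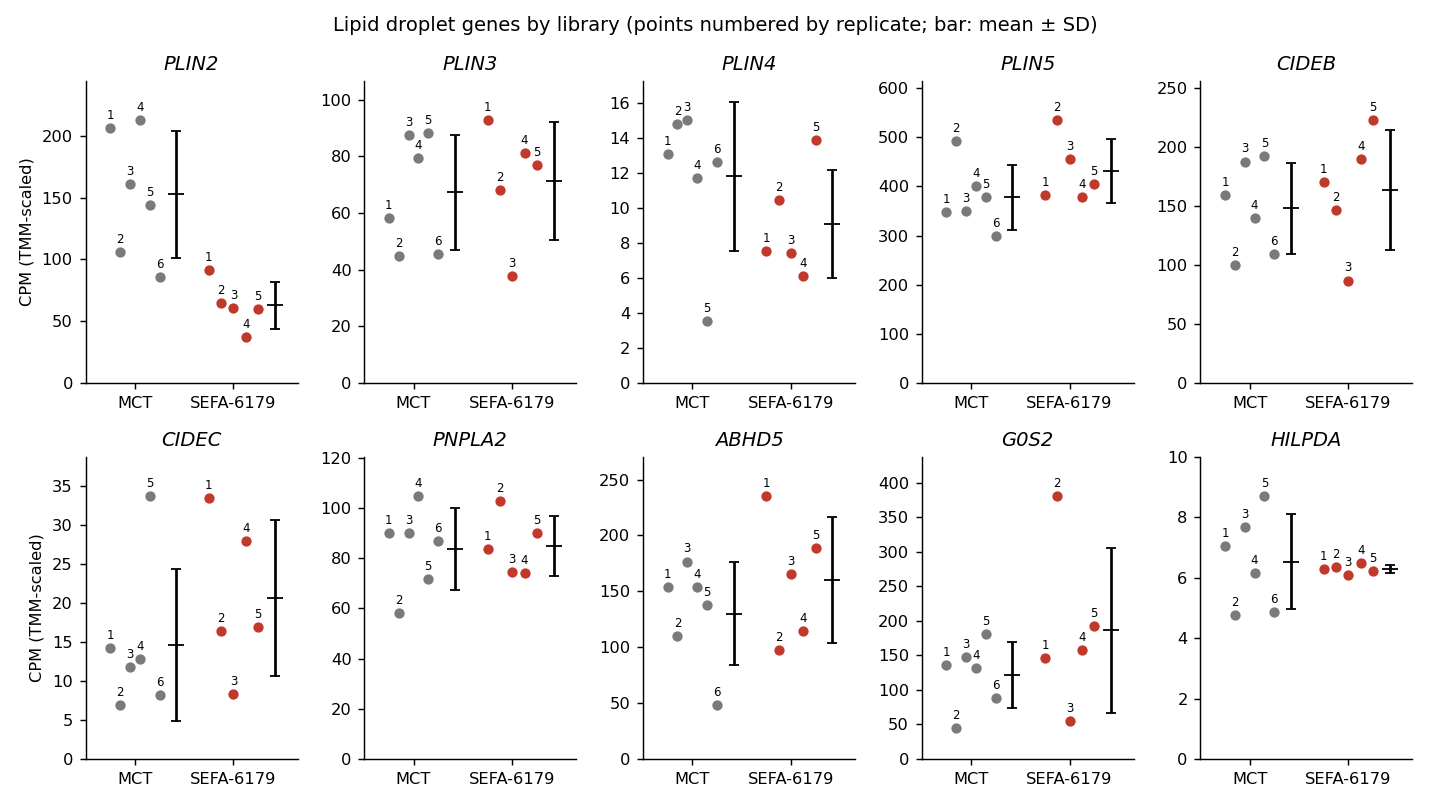
Level of each of the 10 genes in CPM (y axes start at 0 and differ between panels) for the 6 MCT and 5 SEFA-6179 libraries, numbered by replicate, with the mean ± SD of each group. PLIN2 overlaps between groups only through SEFA-6179 replicate 1 and MCT replicate 6, and HILPDA lies within 6.10 to 6.49 CPM in the SEFA-6179 libraries.

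None of the other 3 coat protein genes passed the threshold. PLIN3, a ubiquitous perilipin that moves from the cytosol to young droplets, was at 92.6, 68.1, 37.8, 81.1 and 76.9 CPM in SEFA-6179 replicates 1 to 5. With MCT it ran from 44.8 through a median of 68.8 to 88.2 CPM. The SEFA-6179 values reached past both ends of the control range, and the log2 fold change was 0.08 ± 0.24 (SE; edgeR adjusted p = 0.931).

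PLIN5, which coats droplets in tissues that burn fat and tethers them to mitochondria, was at 383, 534, 456, 379 and 405 CPM with SEFA-6179. With MCT it ran from 298 through a median of 363 to 492 CPM. All 5 SEFA-6179 libraries lay above the control median, but the ranges overlapped, and the log2 fold change was 0.19 ± 0.17 (SE; edgeR adjusted p = 0.728). Its 95% interval, from -0.16 to 0.55, does not reach the PLIN2 value.

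PLIN4, a large perilipin best known from adipose tissue and muscle, was scarce. It was at 7.55, 10.5, 7.44, 6.13 and 13.9 CPM with SEFA-6179 and ran from 3.54 through a median of 12.9 to 15.0 CPM with MCT. The lowest value of all was in MCT replicate 5, and the other 5 MCT libraries were at 11.7 CPM or more. The log2 fold change was -0.38 ± 0.32 (SE; edgeR adjusted p = 0.719). On the opposite strand PLIN4 shares 6836 bases with HDGFL2, which had a mean count of 372 against 202 for PLIN4. Shared bases are taken here over gene spans from start to end, not over exons alone. No source used here says whether counting used strand, so how far reads of the 2 genes were kept apart is not known.

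PLIN3, PLIN5 and PLIN4 lie on chromosome 2 of the deposited table within 369 kilobases, all on the plus strand. PLIN5 (74300619 to 74315125) ends 1645 bases before PLIN4 (74316771 to 74338941) begins, and PLIN3 spans 73969862 to 73995311. PLIN2 is on chromosome 1, from 203683862 to 203709274. On the opposite strand it shares 502 bases with a gene without a symbol, which had a mean count of 184 against 2171 for PLIN2. No source used here names the genome build behind these coordinates. The neighbours PLIN5 and PLIN4 had log2 fold changes of opposite sign, neither past the threshold.

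PLIN5 had the largest share of perilipin mRNA per length in each library, and the PLIN2 portion was smaller in each SEFA-6179 library than in any MCT library. FPKM, fragments scaled to gene length and library size, are the authors' values and allow genes of different length to be set side by side. PLIN2 made up 14.9%, 9.6%, 11.2%, 7.1% and 10.5% of the summed FPKM of the 4 perilipins in SEFA-6179 replicates 1 to 5. With MCT its share was 24.1% ± 6.0 (SD, n = 6), from 16.6% to 32.5%. PLIN5 made up 65.4% ± 7.4 (SD, n = 5) with SEFA-6179 and 54.3% ± 8.2 (SD, n = 6) with MCT, and the ranges overlapped. It was under 50% in MCT replicates 1, 3 and 4, at 48.8%, 48.1% and 49.1%. The sum itself was 109 to 138 FPKM with SEFA-6179 and 91.4 to 150 FPKM with MCT, and the SEFA-6179 totals lay within the control range. These shares sum over chosen genes and carry no test. A smaller PLIN2 share includes the lower level of PLIN2 itself. As background, the log2 ratio of PLIN2 to 1 other gene separated the groups fully, in the same direction, for 20.6% of tested genes.

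**Figure D2:**
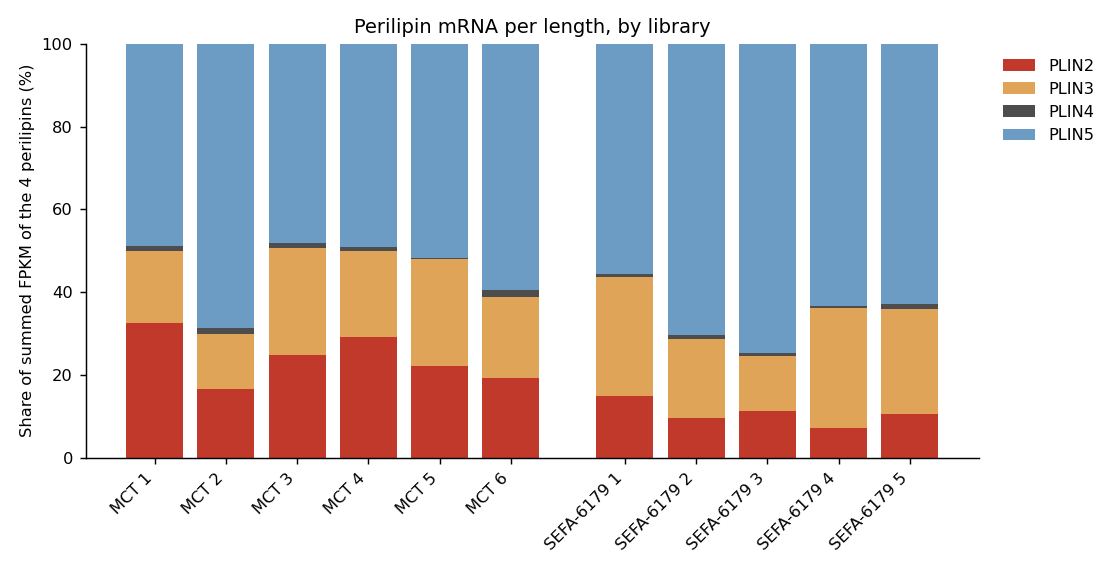
Share (%) of each of the 4 perilipins in their summed FPKM, 1 stacked bar per library, 6 MCT libraries on the left and 5 SEFA-6179 libraries on the right. PLIN2, at the base of the bars, takes 16.6% to 32.5% with MCT and 7.1% to 14.9% with SEFA-6179.

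Neither CIDE gene passed the threshold. CIDEB was at 171, 147, 87.1, 191 and 223 CPM in SEFA-6179 replicates 1 to 5, and ran from 100 through a median of 150 to 192 CPM with MCT. SEFA-6179 libraries held both the lowest and the highest value, and the log2 fold change was 0.14 ± 0.24 (SE; edgeR adjusted p = 0.876). CIDEB shares 1463 bases with LTB4R2 and 23 bases with NOP9 on the opposite strand. These had mean counts of 82.3 and 271 against 2878 for CIDEB.

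CIDEC varied more from animal to animal. It was at 33.5, 16.5, 8.32, 28.0 and 17.0 CPM with SEFA-6179, and ran from 6.88 through a median of 12.3 to 33.8 CPM with MCT. MCT replicate 5 was at 33.8 CPM, while the other 5 MCT libraries were at 14.2 CPM or less. The log2 fold change was 0.50 ± 0.43 (SE; edgeR adjusted p = 0.728), with a 95% interval from -0.43 to 1.43. Single libraries moved it both ways: it was 0.94 without MCT replicate 5 (edgeR adjusted p = 0.280), 0.25 when SEFA-6179 replicate 1 was dropped (edgeR adjusted p = 0.889), and 0.36 when MCT replicate 2 was dropped (edgeR adjusted p = 0.855).

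The lipase and its coactivator showed no difference past the threshold. PNPLA2 was at 83.7, 103, 74.5, 74.1 and 90.2 CPM with SEFA-6179 and ran from 58.3 through a median of 88.4 to 105 CPM with MCT, so the SEFA-6179 range lay inside the control range. Its log2 fold change was 0.02 ± 0.16 (SE; edgeR adjusted p = 0.975), with a 95% interval from -0.32 to 0.36. ABHD5 was at 235, 97.2, 165, 114 and 189 CPM with SEFA-6179 and ran from 48.2 through a median of 146 to 177 CPM with MCT. SEFA-6179 replicates 1 and 5 lay above all controls, and MCT replicate 6 was the lowest of the 11. The log2 fold change of ABHD5 was 0.30 ± 0.30 (SE, edgeR adjusted p = 0.771). ABHD5 shares 339 bases with ANO10 on the opposite strand, which had a mean count of 269 against 2705 for ABHD5.

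Neither inhibitor of the lipase passed the threshold. G0S2 was at 146, 381, 54.6, 157 and 192 CPM with SEFA-6179 and ran from 44.4 through a median of 134 to 181 CPM with MCT. Its highest library was 6.97 times its lowest within the SEFA-6179 group, the widest such range of the 10 genes in that group. Its log2 fold change was 0.62 ± 0.43 (SE; edgeR adjusted p = 0.656), with a 95% interval from -0.32 to 1.56. Without SEFA-6179 replicate 2, the highest library, it was 0.18 (edgeR adjusted p = 0.924), and over the libraries left out in turn it reached at most 0.85. HILPDA, a target of hypoxia-inducible factors, was at 6.30, 6.35, 6.10, 6.49 and 6.22 CPM with SEFA-6179 and ran from 4.76 through a median of 6.60 to 8.71 CPM with MCT. Its log2 fold change was -0.05 ± 0.19 (SE; edgeR adjusted p = 0.947).

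HILPDA counts were low, 101 to 118 per SEFA-6179 library, and counting error alone gives a coefficient of variation of 9.54% at that depth. The observed coefficient was 2.32% among the SEFA-6179 libraries and 24.1% among the MCT libraries. The tight SEFA-6179 values are thus closer together than counting error gives on average. The difference in spread between the groups was not tested.

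In sum over the 10 genes, edgeR called 0, where 0.219% of all tested genes were called, and 1 gene, PLIN2, had an unadjusted p under 0.05, against 10.8% of all tested genes. DESeq2 called PLIN2 alone and limma likewise. For none of the 10 did the groups separate fully, which 1.49% of all tested genes showed. The median log2 fold change of the 10 was 0.11, with 7 above 0 and 3 below, beside -0.0015 over all tested genes. Leaving out 1 library in turn, the log2 fold change of CIDEB ran from 0.00023 to 0.30, that of ABHD5 from 0.11 to 0.44 and that of PLIN4 from -0.58 to -0.26, and none of these passed.

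**Figure D3:**
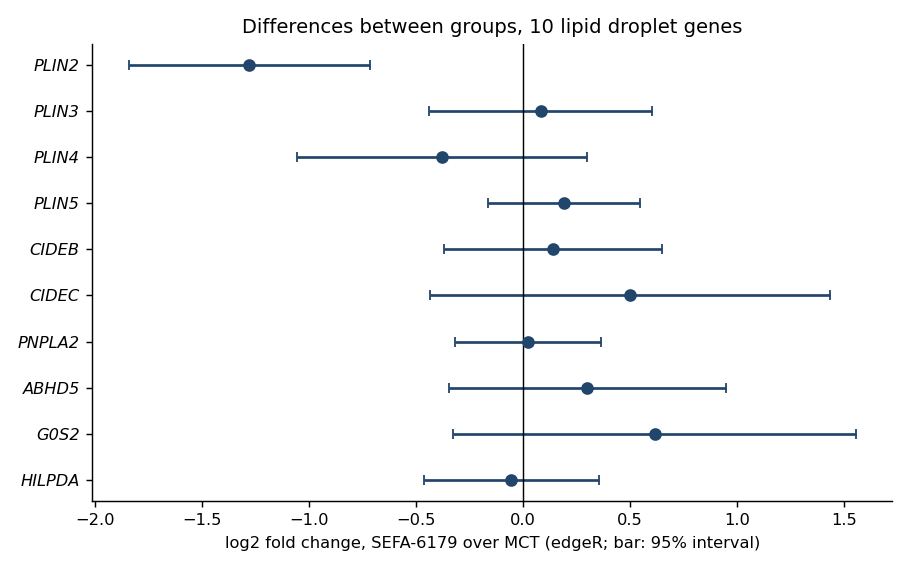
Log2 fold change of SEFA-6179 over MCT for the 10 genes (x axis, log2 scale; y axis, gene), with 95% intervals from the edgeR fit to all genes. The PLIN2 interval, from -1.84 to -0.71, lies below 0, and the intervals of the other 9 genes include 0.

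Ratios within a library ask whether PLIN2 changed against the other droplet genes of the same animal. Of 9 log2 ratios with PLIN2 as the numerator, 8 were lower in SEFA-6179 livers by an exact two-sided permutation test over libraries, with Benjamini-Hochberg adjustment over 13 ratios. This mostly restates the level of PLIN2 itself: its ratio to any other single tested gene was lower with an unadjusted p under 0.05 for 81.5% of genes. Full separation of the groups, which 20.6% of such ratios over all genes showed, held for 4 of the 9, namely the ratios to PLIN3, CIDEB, ABHD5 and HILPDA.

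The PLIN2 to ABHD5 ratio separated the groups most relative to its spread. It was -1.33 ± 0.43 (SD, n = 5) on the log2 scale with SEFA-6179 and 0.27 ± 0.37 (SD, n = 6) with MCT, a difference of -1.59 (exact permutation p = 0.00216, the smallest these libraries can give, adjusted p = 0.00703). PLIN2 to PLIN3 was -0.17 ± 0.65 (SD, n = 5) against 1.16 ± 0.41 (SD, n = 6), with the same exact permutation p. The log2 ratio was at least 0.70 in the 6 MCT libraries and ran from -1.11 to 0.69 in the SEFA-6179 libraries. Counts are not scaled to gene length here, so only the difference between groups is read from a ratio.

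PLIN2 to PLIN5 differed by -1.45 and PLIN2 to PNPLA2 by -1.30, each with an exact permutation p of 0.00649 and an adjusted p of 0.0141. The ratio to CIDEC differed by -1.80 and the ratio to G0S2 by -1.74 (exact permutation adjusted p = 0.0161 and 0.0176). The ratio to G0S2 lost its call without MCT replicate 1, 2 or 4 (exact permutation adjusted p = 0.0516 each). The ratio to PLIN4 did not pass, with a difference of -0.96 (exact permutation p = 0.0736, adjusted p = 0.106). The PLIN4 to PLIN2 comparison rests on the low counts of PLIN4 noted above.

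Ratios that leave PLIN2 out did not pass. G0S2 to PNPLA2, inhibitor to enzyme, differed by 0.45 ± 0.45 (SE; exact permutation p = 0.323, adjusted p = 0.381). HILPDA to PNPLA2 differed by -0.06 ± 0.19 (SE; exact permutation p = 0.788), and ABHD5 to PNPLA2, coactivator to enzyme, by 0.30 ± 0.39 (SE; exact permutation p = 0.506). CIDEC to CIDEB differed by 0.43 ± 0.32 (SE; exact permutation adjusted p = 0.262), and without MCT replicate 5 by 0.63 (exact permutation adjusted p = 0.0459).

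**Figure D4:**
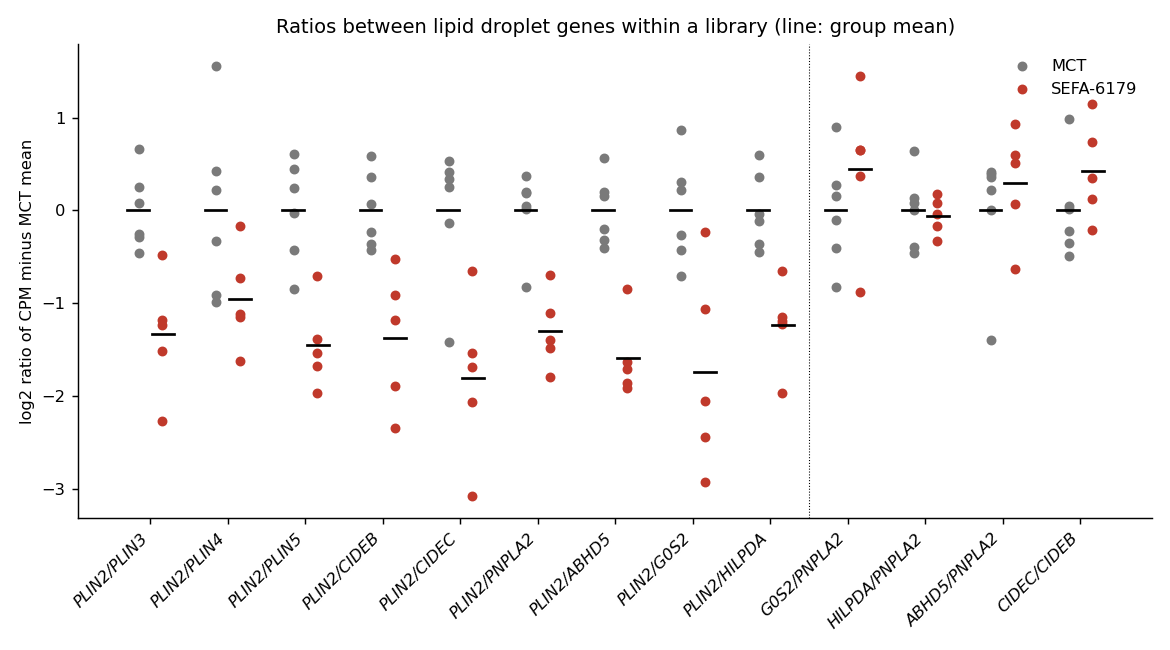
Log2 ratios of CPM within each library (y axis, centred on the MCT mean of each ratio) for 9 ratios with PLIN2 as numerator, left of the dotted line, and 4 others, right of it; grey points are MCT, red points SEFA-6179, lines group means. The PLIN2 ratios differ by -0.96 to -1.80 and the 4 others by -0.06 to 0.45.

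By level per length, G0S2 was the most abundant of the 10 transcripts and PLIN4 the least. With MCT the order by mean FPKM was G0S2 (288 ± 115, SD, n = 6), CIDEB (84.8 ± 22.4), PLIN5 (69.3 ± 12.0), PNPLA2 (35.5 ± 6.9), PLIN2 (31.5 ± 10.7), ABHD5 (29.0 ± 10.2), PLIN3 (26.4 ± 8.0), CIDEC (11.1 ± 7.5), HILPDA (6.0 ± 1.5) and PLIN4 (1.35 ± 0.48). Neighbours from PNPLA2 to PLIN3 differed by less than their spread, as did CIDEB and PLIN5, and CIDEC and HILPDA. The G0S2 model in the table is 418 bases long, equal to its span, so its level per length rests on that short length.

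With SEFA-6179 the order was the same for the first 4 and the last 2, and PLIN2 moved from the fifth place to the eighth. It was at 12.9 ± 3.95 FPKM (SD, n = 5), next to CIDEC at 15.6 ± 7.59, from which it differed by less than their spread. PLIN5 was at 79.0 ± 11.7 FPKM and G0S2 at 440 ± 282 FPKM. The order of ranks was the same in both groups when CPM per kilobase replaced FPKM.

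Within groups, some of the 10 genes were correlated from animal to animal, among them PLIN3 with CIDEB and CIDEC, and PLIN2 with ABHD5. Deviations of log2 CPM from the group mean were correlated over all 11 libraries for the 45 pairs, with p-values from all 86400 permutations within groups, and 33 pairs were above 0. By Pearson's r, 6 pairs passed the adjustment over 45, and by Spearman's rho none did (lowest adjusted permutation p = 0.0891). Libraries share depth and composition differences, which such correlations include. The share of pairs among all tested genes that correlate as strongly was not computed. The counts of 6 and 33 pairs are thus not read as particular to these genes.

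PLIN3 and CIDEC had r = 0.83 (exact permutation p = 0.00117, adjusted p = 0.0175) and rho = 0.85 (exact permutation p = 0.00198). Without the 2 libraries farthest from the PLIN3 median, r was 0.67. PLIN3 and CIDEB had r = 0.89 (exact permutation adjusted p = 0.0262) and rho = 0.72 (exact permutation p = 0.0230), and r = 0.71 without the 2 farthest libraries. MCT replicates 2 and 6 and SEFA-6179 replicate 3 were low in all 3 genes, with deviations from -0.39 to -1.15 on the log2 scale. CIDEB and CIDEC themselves had r = 0.77 (exact permutation adjusted p = 0.0525).

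PLIN2 had its highest r with ABHD5, at 0.76 (exact permutation p = 0.00625, adjusted p = 0.0469) and rho = 0.80 (exact permutation p = 0.00743). Without the 2 libraries farthest from the PLIN2 median r was 0.52. MCT replicate 6 was the lowest control for both, and SEFA-6179 replicate 1 the highest treated library for both. The remaining pairs past the adjustment join HILPDA with CIDEB (r = 0.67), G0S2 (r = 0.59) and CIDEC (r = 0.70), with exact permutation adjusted p of 0.0175, 0.0175 and 0.0262. Their rho were 0.70, 0.71 and 0.68 (exact permutation p = 0.0193, 0.0107 and 0.0180), and r without the 2 libraries farthest from the median of the partner gene was 0.75, 0.51 and 0.64. HILPDA hardly varied among SEFA-6179 libraries, so these correlations rest on the MCT libraries.

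PLIN4 and CIDEC had opposite deviations in MCT replicate 5, -1.57 and 1.41. Their r was -0.66 over all libraries (exact permutation adjusted p = 0.206) and -0.05 without MCT replicate 5 and SEFA-6179 replicate 4.

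**Figure D5:**
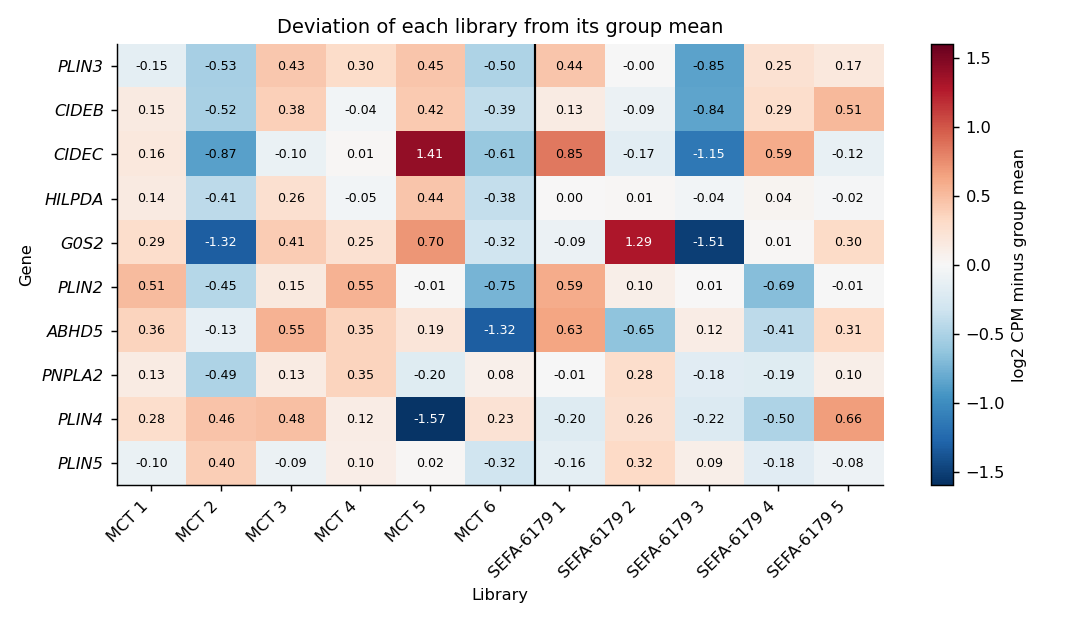
Deviation of each library (columns, MCT left and SEFA-6179 right) from its group mean in log2 CPM, for the 10 genes (rows); red is above and blue below the mean. PLIN3, CIDEB and CIDEC are low together in MCT 2, MCT 6 and SEFA-6179 3, and HILPDA stays within -0.04 to 0.04 in the SEFA-6179 libraries.

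Among 9944 genes with a symbol and a mean count of at least 50, the gene whose deviations were most like those of PLIN2 over the 11 libraries was LIPA, which encodes the lysosomal acid lipase that breaks down cholesteryl esters and triacylglycerol (r = 0.89). The next were CUX1, a homeobox transcription factor (r = 0.88), ST14, the membrane serine protease matriptase (r = 0.85), THEMIS2, an immune cell signalling protein (r = 0.83), and PEX2, a peroxisome biogenesis factor (r = 0.82). ABHD5 ranked 21 by the same measure. These r are descriptions, picked as the highest of many genes. Without MCT replicate 5 and SEFA-6179 replicate 4 none of the 5 stayed among the first 5, with r of 0.77 to 0.89 and ranks from 10 to 103.

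LIPA was at 225, 172, 184, 143 and 203 CPM in SEFA-6179 replicates 1 to 5 and ran from 105 to 222 CPM with MCT. Its log2 fold change was 0.07 ± 0.20 (SE; edgeR adjusted p = 0.923). LIPA shares 34792 bases with IFIT1 and 18704 bases with IFIT2 on the opposite strand, which had mean counts of 6313 and 1187 against 3395 for LIPA. Without a known strand setting, its values and its likeness to PLIN2 are uncertain.

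The genes that make triacylglycerol showed no change past the threshold. Of 14 tested genes of that synthesis none was called by edgeR or DESeq2. An unadjusted p under 0.05 was seen for 1 in each direction by edgeR, beside 10.8% of all tested genes. Of the 14, 10 lay above 0, where 6809 of all 13671 tested genes did, and the median log2 fold change was 0.14. MOGAT1, a monoacylglycerol acyltransferase, had the smallest p, at 83.8 ± 25.2 CPM (SD, n = 5) against 53.6 ± 11.9 CPM (SD, n = 6; edgeR adjusted p = 0.283). DGAT2, which adds the last fatty acid, had a log2 fold change of 0.41 (edgeR adjusted p = 0.857), and DGAT1, which catalyses the same step, one of 0.02 (edgeR adjusted p = 0.983).

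Other droplet proteins and other lipases were likewise not called. Of 14 tested genes of droplet biogenesis and other droplet proteins 9 lay above 0, with a median of 0.05. AUP1, a droplet protein that recruits ubiquitin enzymes, was the nearest, at 95.1 ± 6.1 against 120 ± 21.5 CPM (edgeR adjusted p = 0.410, unadjusted p = 0.0360). None of these 14 was called by DESeq2. Of 11 tested hydrolases of neutral lipid 7 lay above 0, with a median of 0.01, none with an unadjusted p under 0.05 and none called by DESeq2. LIPE, hormone-sensitive lipase, was at 10.2 and 9.49 CPM in SEFA-6179 replicates 1 and 5, above the control maximum of 4.70 CPM, and within the control range in the other 3 (edgeR adjusted p = 0.498).

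PPARA, the nuclear receptor of fatty acid oxidation, has PLIN2 among its known targets. Of 21 tested other PPARA targets 2 were called, where edgeR called 0.219% of all tested genes, and both were higher: CROT, a peroxisomal acyl transferase, and ACADL, the long-chain acyl-CoA dehydrogenase. CROT ran from 154 to 244 CPM with SEFA-6179 and from 72.1 to 114 CPM with MCT (log2 fold change 1.07, edgeR adjusted p = 0.0273). CROT overlaps a gene on the other strand by 3264 bases, which had a mean count of 3453 against 2475 for CROT. As no source used here says whether strand was counted, the CROT value is uncertain. ACADL ran from 83.5 to 118 CPM with SEFA-6179 and from 47.9 to 78.2 CPM with MCT (log2 fold change 0.84, edgeR adjusted p = 0.0398). Leaving out 1 library in turn, CROT was called in 8 of 11 fits and lost without MCT replicate 1, MCT replicate 4 or SEFA-6179 replicate 5 (edgeR adjusted p from 0.0196 to 0.0987). ACADL was called in 2 of 11, those without MCT replicate 6 or SEFA-6179 replicate 3 (edgeR adjusted p from 0.0239 to 0.124). The list had 15 members above 0, 6 below and a median of 0.16, where 6809 of all 13671 tested genes lay above 0. PLIN2 was at -1.28, and a part of PPARA in its level was not tested.

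Among 19 tested hypoxia response genes, read beside HILPDA, 15 lay above 0 (6809 of all 13671 tested genes did) with a median of 0.14, and edgeR called none. P4HA1, a collagen prolyl hydroxylase, had the smallest p (116 ± 29.6 against 67.7 ± 10.4 CPM, edgeR adjusted p = 0.106) and was called by DESeq2 (adjusted p = 0.00761). VEGFA had a log2 fold change of 0.19 and ADM one of 0.04. Of 18 tested transcription factors that act on droplet genes none was called by edgeR or DESeq2, and the median was 0.05. Of these factors, 2 had an unadjusted p under 0.05 by edgeR, beside 10.8% of all tested genes. PPARD had the smallest p, at 27.3 ± 9.6 against 17.5 ± 3.8 CPM (edgeR adjusted p = 0.286). PPARA itself had a log2 fold change of 0.73 (edgeR adjusted p = 0.535) and PPARG one of -0.67 (edgeR adjusted p = 0.744). DESeq2 gave PPARG no adjusted p. PPARG was hardly detected, at 0.40 ± 0.17 against 0.63 ± 0.42 CPM with a mean count of 10.2, so its value says little.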

How the data were processed

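Values came from 1 deposited table. Per the file headers it holds a raw read count per gene and library, an FPKM value from the authors, and the authors' log2 fold change with its p-value and adjusted p-value. A further deposited signal per library is the count divided by a size factor. Tools named, per the submitters' processing notes, were HISAT2 (2.0.5), DESeq2 (1.20.0), StringTie (1.3.3b) and featureCounts (1.5.0-p3), with no role stated. No source used here gives the genome build or strand setting.

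Counts were tested with edgeR 4.0.16 (R 4.3.3): filterByExpr with a minimum count of 10, TMM scaling, and the robust quasi-likelihood test over all 13671 genes and 11 libraries, two-sided, with Benjamini-Hochberg adjustment and a threshold of 0.05. Standard errors and intervals derive from the F statistic. Ratios used log2 CPM (prior count 2) and all 462 partitions of the libraries. DESeq2 1.42.0, limma 3.58.1 and leaving out libraries were alternatives. The fits were tested on simulated data. Python 3.11.15 was used for permutations.

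Named genes are the 10 members, up to 4 called genes of each wider list or else the gene with the smallest p, and the 5 genes most like PLIN2. List members named outside this rule (DGAT1, DGAT2, VEGFA, ADM, PPARA, PPARG) were chosen after their values were seen. The members and lists were chosen with earlier results of these data known. Replicate numbers did not pair the libraries: the correlation of deviations between same-numbered libraries ran from -0.15 to 0.20.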

Additional observations from a re-analysis of the deposited data

Results flagged for a closer look

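Of 60 groups of 5 or 6 libraries examined, 7 had an outlying highest or lowest library by Dixon's criterion, where chance gives about 3. MCT replicate 5 stood apart in 4 of them. Its PLIN4 level was 3.54 CPM while the other controls were at 11.7 to 15.0 CPM, and its CIDEC level was 33.8 CPM against 6.88 to 14.2 CPM. Its log2 ratio of PLIN2 to CIDEC was 2.09 against 3.37 to 4.04, and that of CIDEC to CIDEB was -2.51 against -3.99 to -3.44.

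MCT replicate 6 stood apart in the log2 ratio of PLIN2 to PNPLA2, at -0.012 against 0.84 to 1.19, and of ABHD5 to PNPLA2, at -0.85 against 0.56 to 0.97. SEFA-6179 replicate 2 stood apart in the log2 ratio of PLIN2 to ABHD5, at -0.58 where the other 4 treated libraries were at -1.65 to -1.37.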

How the results depend on the processing

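The PLIN2 log2 fold change stayed negative in all 20 alternatives, from -1.46 to -1.14. It was called with no low-count filter (-1.28, edgeR adjusted p = 0.0430), by DESeq2 (-1.28), by limma (-1.40) and without MCT replicate 6 (-1.40), and in each of these 1 of the 10 genes was called. Leaving out 1 library gave, by edgeR, 0 to 1 called genes of the 10 and PLIN2 values from -1.46 to -1.14. With a replicate block over replicates 1 to 5, PLIN2 was at -1.40 (edgeR adjusted p = 0.108), 8 genes were called over all, 0 members of the wider lists were called, and PLIN3 turned to -0.012. The paired ratios called 0 of 13, against 8, because 5 pairs cannot give an exact p under 0.05.

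Over all genes edgeR called 30, DESeq2 276 and limma 62, and edgeR 6 with EIF1AY as a covariate and 1 without both MCT replicate 5 and SEFA-6179 replicate 4, where the wider lists had 0 calls each time and DESeq2 called 226. With EIF1AY as a covariate PLIN2 was at -1.20 (edgeR adjusted p = 0.142). CROT and ACADL lost their calls in that fit (edgeR adjusted p = 0.0521 each). Leaving out 1 library gave 0 to 53 calls. Dropping SEFA-6179 replicate 5 left 0 edgeR calls (1184 genes with unadjusted p under 0.05, 165 DESeq2 calls), and dropping MCT replicate 4 also left 0 (1258 and 167). In the wider lists it gave 0 to 2 calls, all higher.

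Values near 0 that did not pass changed sign. PNPLA2 was at -0.080 by limma, and leaving out 1 library in turn it ran from -0.058 to 0.10. In the same tests PLIN3 ran from -0.035 to 0.24, HILPDA from -0.13 to 0.045 and the ratio of HILPDA to PNPLA2 from -0.15 to 0.071. Without both MCT replicate 5 and SEFA-6179 replicate 4, HILPDA was at 0.038 and that ratio at 0.014. Of the 5 genes most like PLIN2, 0 stayed among the first 5 without both libraries. The cause was not tested. HILPDA and PLIN4 had at most 155 and 342 counts in a library, so counting error bears most on them, while the SE was largest for G0S2 and CIDEC, at 0.43 each.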
